A study of Mus musculus with 12 samples.

Results

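The genes described here are 10 genes of the NRF2 pathway and of antioxidant defence, taken by name from the 23997 genes measured in each library: Nfe2l2, Nqo1, Gclm, Gclc, Txnrd1, Srxn1, Slc7a11, Sod2, Prdx1 and Prdx5. The list uses names and no cutoff on measured values, but it was drawn up with earlier results of these data known. All 10 were among the 10581 genes that reached 1 FPKM (fragments per kilobase of transcript, scaled for library depth) in at least 3 of the 12 libraries. Of these genes, 8 reached it in every library, Nqo1 in 11 libraries and Slc7a11 in 9, since Slc7a11 lay below it in untreated WT cells.

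RNA-seq was performed on bone marrow-derived macrophages (BMDMs) of C57BL/6 male mice aged 8 to 10 weeks, either WT or Pim1-/-, with the Pim1 gene deleted in the whole animal by CRISPR-Cas9. Bone marrow cells were grown into macrophages for 7 days with M-CSF at 10 ng/ml in medium with 20% FBS. Cells of each genotype were left untreated or received LPS, the bacterial ligand of TLR4, at 100 ng/ml for 4 h, and each of the 4 groups had 3 libraries. The labels do not say whether the 3 libraries came from separate mice or cultures, so p-values measure only the spread between these samples, which may be technical.

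NRF2, the protein encoded by Nfe2l2, is a transcription factor that KEAP1 holds in the cytosol and hands to the CUL3 ubiquitin ligase for degradation. When oxidants or electrophiles modify KEAP1, NRF2 accumulates, pairs with a small MAF protein and binds the antioxidant response element (ARE) of its target genes, much of this control acting on the protein and not on Nfe2l2 RNA. Its targets reduce quinones (Nqo1), import cystine and make glutathione (Slc7a11, Gclc, Gclm) and keep thioredoxin and the peroxiredoxins reduced (Txnrd1, Srxn1, Prdx1). Sod2, the superoxide dismutase of mitochondria, is a textbook NF-kappaB target, and Prdx5 is a peroxiredoxin found in mitochondria, peroxisomes and the cytosol. LPS makes macrophages produce both reactive oxygen and itaconate, an electrophile that can modify KEAP1.

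The upstream sequence of these genes is shown because NRF2 and NF-kappaB act through short sites there. RefSeq (build GRCm38.p6) gave an annotated start for 9 of the 10 genes, all but Gclc, and the 250 bases before each start were searched on both strands. The ARE core TGACNNNGC was found upstream of Nfe2l2, Gclm, Prdx1 and Txnrd1, against 11.5% of 27025 gene symbols. The letters TGANTCA, shared by AP-1 and MAF factors, were found upstream of Srxn1 and Prdx1, against 7.82% of all symbols. A kappaB motif was found upstream of Sod2, Prdx1 and Txnrd1, against 10.8%. The stretches below run 5′ to 3′, with matches in capitals. They are chr3:122245408-122245446 for Gclm, chr10:82859099-82859137 for the inner start of Txnrd1, chr10:82833734-82833773 for its outer start, chr2:152105407-152105500 for Srxn1, chr4:116685349-116685489 for Prdx1 and chr17:13007741-13007780 for Sod2, all on the plus strand and upstream of the annotated start.
Gclm, ARE core read on the opposite strand: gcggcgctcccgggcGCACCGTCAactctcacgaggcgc
Txnrd1, inner start, ARE core read on the opposite strand: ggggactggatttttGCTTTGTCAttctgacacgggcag
Txnrd1, outer start, kappaB: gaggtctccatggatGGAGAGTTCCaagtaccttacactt
Srxn1, TGANTCA at 2 places: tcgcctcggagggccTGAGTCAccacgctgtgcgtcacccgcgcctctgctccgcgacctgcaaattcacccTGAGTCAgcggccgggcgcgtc
Prdx1, TGANTCA, kappaB, then the ARE core overlapping TGANTCA: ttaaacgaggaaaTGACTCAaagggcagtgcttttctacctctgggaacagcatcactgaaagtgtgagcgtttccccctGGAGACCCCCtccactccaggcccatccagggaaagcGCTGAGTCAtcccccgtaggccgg
Sod2, kappaB: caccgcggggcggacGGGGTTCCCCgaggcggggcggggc
In Prdx1 the ARE core lay 133 to 125 bases before the start and in Gclm 134 to 126 bases before it. The stretch of Txnrd1's inner start and that of Sod2 lie within those genes. The match of Nfe2l2 lies in an exon of the neighbouring E030042O20Rik and is not printed. A match of letters is a description of the sequence and no evidence of binding.

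The deleted gene was checked first. Without LPS the Pim1 level was 22.9 ± 1.80 FPKM in WT and 8.74 ± 0.752 in Pim1-/- cells (SD, n = 3), and after LPS 645.4 ± 17.8 and 218.9 ± 15.6. It was lower in Pim1-/- cells in both states (log2 difference −1.30, adjusted p = 8.4e-11, and −1.56, adjusted p = 9.1e-12, limma) but not absent, and the deposited value covers the whole gene. Replicates were close, with a median coefficient of variation of 3.03% to 5.12% within groups. Summed FPKM was 452511 to 489710 in untreated and 713307 to 849323 in LPS-treated libraries, and 1 FPKM corresponded to about 38 to 46 fragments per kilobase in the former and 21.0 to 32.2 in the latter. Macrophage markers were present in every library, Cd68 for example at 905.1 to 1186 FPKM. Of 10 such markers 9 were lower in Pim1-/- cells without treatment and 10 after LPS, with a summed level of 14539 to 15434 FPKM against 28076 to 30124 in untreated WT cells and of 16307 to 18149 against 31617 to 32085 after LPS. Most of each sum was Lyz2, with untreated means of 26302 FPKM in WT and 13297 in Pim1-/- cells. The untreated means were 1161 and 956.0 FPKM for Cd68, but 763.8 and 254.3 for Csf1r, in WT and Pim1-/- cells. Of 10 genes of dividing cells, 10 were higher in untreated Pim1-/- cells and 9 after LPS, where 1 was lower, with sums of 402.8 to 408.7 against 25.7 to 31.3 FPKM and of 171 to 184.8 against 48.6 to 51.2. These counts use the thresholds without a fold requirement that are given below. By them, 42.8% of all genes tested were lower and 33.4% higher in Pim1-/- cells without LPS. After LPS the shares were 42.2% and 36.4%. Summed markers of other types (stromal, erythroid, neutrophil, dendritic, mast, B, and T or NK cells) stayed at or below 10.4 FPKM in every library. The part of these marker differences in the genotype results was not tested. In bulk RNA, fewer cells of a type and less RNA per cell cannot be told apart.

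The first comparison asked how the set differed between the genotypes before any stimulus. Without LPS, 7 of the 10 genes were higher in Pim1-/- than in WT BMDMs, 2 were lower and 1 did not pass. The higher genes were Nqo1, Gclm, Gclc, Slc7a11, Txnrd1, Srxn1 and Prdx1, at 1.53 to 3.15 times their WT mean. Nfe2l2 itself was lower, at 0.695 of its WT mean, and Prdx5 was slightly lower. A gene is said here to pass, to rise or to fall when limma's p was under 0.05 and its false discovery rate (FDR) over all 10581 genes under 0.1, thresholds that 76.2% of all genes tested met in this comparison (33.4% higher and 42.8% lower). With a further requirement of more than 2-fold on the log2(FPKM + 1) scale, 2 of the 10 genes were counted, Nqo1 and Gclm, against 7.78% of all genes (4.40% higher and 3.37% lower). The 3 values of the genotypes did not overlap for 9 of the 10 genes and for 78.4% of all genes. Macrophage markers were lower and genes of dividing cells higher in the same Pim1-/- libraries (median log2 differences −0.74 and 3.21), and their part in these differences was not tested.

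Nfe2l2 (chr2:75675513-75704641, minus strand, GRCm38) was at 152, 159.7 and 153 FPKM in the untreated WT libraries and at 105, 108 and 109.9 in the untreated Pim1-/- libraries. Every Pim1-/- library lay below every WT library, a log2 difference of −0.52 (SE 0.04, adjusted p = 2.5e-08, limma).

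Nqo1 (chr8:107388225-107403206, minus strand), the quinone reductase often used as the marker of NRF2 activity, was scarce in WT cells, at 1.25, 1.46 and 1.00 FPKM, and at 3.62, 4.18 and 3.88 in Pim1-/- cells. The groups were separate, at 3.15 times the WT mean (log2 difference 1.13, SE 0.11, adjusted p = 1.7e-07, limma).

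Of the glutathione genes, Gclm and Gclc encode the modifier and the catalytic subunit of glutamate-cysteine ligase, which makes the first and limiting step of glutathione synthesis. Gclm (chr3:122245557-122270732, plus strand) was at 17.2, 17.2 and 16.8 FPKM in WT and at 41.1, 41.2 and 39.7 in Pim1-/- libraries, 2.38 times as high (log2 difference 1.20, adjusted p = 6.2e-11, limma). Gclc (chr9:77754535-77794485, plus strand) was at 7.18, 6.70 and 7.02 FPKM in WT and at 13.7, 14.0 and 13.9 in Pim1-/- libraries, 1.99 times as high (log2 difference 0.90, adjusted p = 5.5e-10, limma). Both subunits were therefore higher in every Pim1-/- library than in any WT library. Slc7a11 (chr3:49892526-50443614, minus strand), the transport subunit of the cystine-glutamate exchanger, was at 0.834, 0.829 and 0.746 FPKM in WT and at 1.56, 1.70 and 1.53 in Pim1-/- libraries. Its means also differed 1.99-fold, but at these low levels the added 1 FPKM held the log2 difference to 0.52 (adjusted p = 2.4e-07, limma), and with 0.1 added it was 0.91. Its longest transcript shares stretches of at least 300 bases at 90% identity or more with 15 other genes or pseudogenes. These include Tuba1a, Tuba1b and Tuba1c, and 4 of the 15 are listed among the genes measured. Reads of Slc7a11 may therefore be shared with them, in untreated and in LPS-treated libraries.

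Of the thioredoxin genes, Txnrd1 (chr10:82833951-82897712, plus strand), the cytosolic thioredoxin reductase, was at 31.3, 31.9 and 31.6 FPKM in WT and at 48.8, 47.2 and 49.1 in Pim1-/- libraries. Srxn1 (chr2:152105516-152111376, plus strand), sulfiredoxin, which repairs overoxidized peroxiredoxins, was at 23.6, 22.6 and 21.8 FPKM in WT and at 36.0, 33.6 and 34.4 in Pim1-/- libraries. Both were 1.53 times as high in Pim1-/- cells (log2 differences 0.60, adjusted p = 5.2e-09, and 0.59, adjusted p = 8.9e-08, limma).

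Prdx1 (chr4:116685544-116700822, plus strand), an abundant cytosolic peroxiredoxin, was at 774, 816 and 712 FPKM in WT and at 1296, 1268 and 1099 in Pim1-/- libraries, 1.59 times as high (log2 difference 0.67, adjusted p = 3.3e-07, limma). It has 3 processed pseudogenes of at least 90% identity, none of them listed among the genes measured, so reads of these copies may be counted with it. Prdx5 (chr19:6906697-6910106, minus strand) went the other way, at 191, 186 and 180.1 FPKM in WT and at 168, 155 and 152 in Pim1-/- libraries (log2 difference −0.23, adjusted p = 0.00074, limma). Sod2 (chr17:13006846-13040063, plus strand) was at 12.6, 12.9 and 11.7 FPKM in WT and at 12.3, 12.4 and 12.3 in Pim1-/- libraries. Its groups overlapped, the 95% interval of the log2 difference ran from −0.09 to 0.08, and its sign turned with the scaling.

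**Figure D1:**
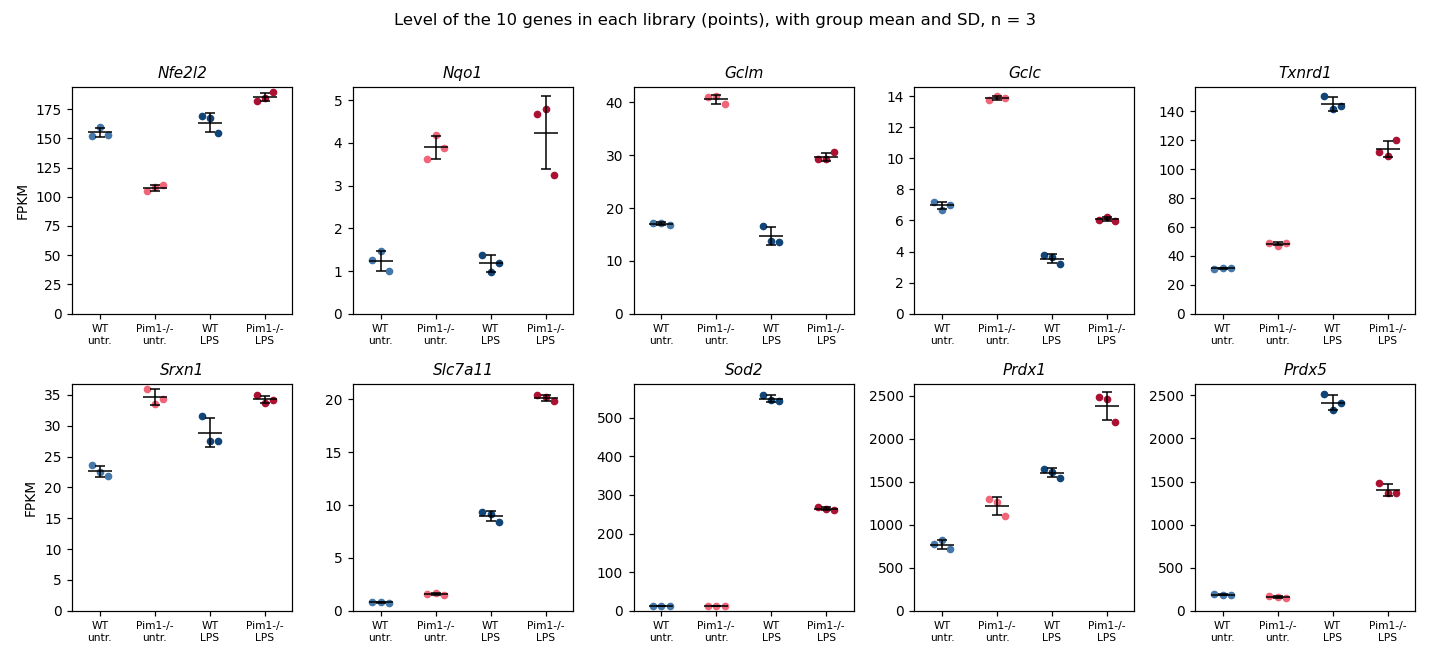
Level in FPKM (y axis, from 0) of each of the 10 genes in untreated (untr.) and LPS-treated BMDMs of WT and Pim1-/- mice. Points are libraries, and horizontal marks with bars are group means and SD, n = 3. Nqo1, Gclm, Gclc and Prdx1 sit higher in Pim1-/- than in WT libraries with and without LPS, while Sod2 is near 12 FPKM in all untreated libraries and separates after LPS, at 543 to 559 FPKM in WT against 259.8 to 268 in Pim1-/- libraries.

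The next comparisons asked how 4 h of LPS changed the set in each genotype. In WT cells 6 of the 10 genes rose with LPS (Sod2, Prdx5, Slc7a11, Txnrd1, Prdx1 and Srxn1), Gclc and Gclm fell, and Nfe2l2 and Nqo1 did not pass. In Pim1-/- cells 6 rose as well, with Nfe2l2 in place of Srxn1, and Gclc and Gclm again fell. In all, 8 genes passed in each genotype, where 89.7% of all genes tested passed in WT (45.0% higher, 44.6% lower) and 85.2% in Pim1-/- cells (42.2% higher, 42.9% lower). More than 2-fold changes numbered 5 in WT cells, all increases, against 34.8% of all genes (20.1% higher, 14.7% lower). They numbered 5 in Pim1-/- cells, 4 increases and the decrease of Gclc, against 25.0% (14.6% higher, 10.4% lower). Treated and untreated libraries did not overlap for 8 of the 10 genes in each genotype, and for 90.4% of all genes in WT and 83.8% in Pim1-/- cells. These directions depend on how the libraries are scaled: with all libraries brought to the same summed FPKM, the median of all genes moved from 0.00 to −0.67 in WT and from −0.01 to −0.58 in Pim1-/- cells, Srxn1 and Nqo1 fell in both genotypes, and Nfe2l2 fell in WT.

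Sod2 showed the widest change of the set. It reached 559, 547 and 543 FPKM in LPS-treated WT libraries, 44.5 times the untreated mean (log2 difference 5.37, SE 0.04, adjusted p = 9e-22, limma). In LPS-treated Pim1-/- libraries it reached 268, 265 and 259.8 FPKM, 21.4 times the untreated mean (log2 difference 4.31, adjusted p = 1e-20, limma). Every treated library of either genotype lay above all untreated ones.

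Prdx5 was at 2511, 2328 and 2412 FPKM in WT and at 1485, 1365 and 1361 in Pim1-/- libraries after LPS. This was 13.04 and 8.87 times the untreated means (log2 differences 3.70 and 3.14, adjusted p = 8.6e-19 and 9.1e-18, limma). Slc7a11 rose from below 1 FPKM to 9.37, 9.12 and 8.43 FPKM in WT and from below 2 FPKM to 20.4, 20.2 and 19.8 in Pim1-/- libraries, 11.2 and 12.6 times the untreated means (log2 differences 2.47 and 3.03, adjusted p = 2e-16 and 2.1e-17, limma). With the libraries at the same total, the log2 differences in WT and Pim1-/- cells were 4.58 and 3.68 for Sod2, 2.89 and 2.48 for Prdx5 and 1.91 and 2.53 for Slc7a11, so these increases held under that scaling.

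Txnrd1 rose to 151, 142 and 144 FPKM in WT and to 112, 109 and 120.1 in Pim1-/- libraries, 4.61 and 2.35 times the untreated means (log2 differences 2.17 and 1.22, adjusted p = 8e-17 and 2e-13, limma). Prdx1 rose to 1645, 1617 and 1544 FPKM in WT and to 2482, 2464 and 2196 in Pim1-/- libraries, 2.09 and 1.95 times the untreated means (log2 differences 1.06 and 0.96, adjusted p = 3.7e-10 and 1.7e-09, limma). Both genes thus increased in every treated library, but by less at the same library total, where the log2 differences were 1.37 and 0.56 for Txnrd1 and 0.25 and 0.30 for Prdx1.

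The glutamate-cysteine ligase genes moved against the cystine exchanger. Gclc was at 3.76, 3.68 and 3.20 FPKM in LPS-treated WT and at 6.03, 6.23 and 5.96 in LPS-treated Pim1-/- libraries, log2 differences of −0.81 and −1.07 from the untreated cells (adjusted p = 4.9e-10 and 1.8e-11, limma). Gclm was at 16.6, 13.8 and 13.6 FPKM in LPS-treated WT and at 29.2, 29.2 and 30.5 in LPS-treated Pim1-/- libraries, log2 differences of −0.21 and −0.44 (adjusted p = 0.0034 and 4.2e-06, limma). Both fell under every scaling used, and by more at the same library total, by 1.48 and 1.68 on the log2 scale for Gclc and by 0.97 and 1.09 for Gclm. Slc7a11, which supplies the cystine this enzyme's pathway needs, rose in the same libraries.

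Nfe2l2 was at 169, 167 and 154 FPKM in LPS-treated WT libraries, which overlapped the untreated ones (log2 difference 0.07, 95% interval −0.02 to 0.16, adjusted p = 0.11, limma). In Pim1-/- cells it rose to 182, 184 and 189 FPKM, 1.72 times the untreated mean (log2 difference 0.78, adjusted p = 6e-11, limma). The WT value was −0.73 at the same library total and −1.03 after quantile normalization, and passed as a decrease in both. The Pim1-/- value was 0.12 at the same total, where it still passed, and −0.083 after quantile normalization, where it did not.

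Srxn1 was at 31.6, 27.5 and 27.5 FPKM in LPS-treated WT libraries, all above the untreated ones (log2 difference 0.33, adjusted p = 2.6e-05, limma), and at 34.9, 33.8 and 34.2 in LPS-treated Pim1-/- libraries, within the range of the untreated ones (log2 difference −0.01, adjusted p = 0.82, limma). Its direction in WT cells turned with the scaling, to −0.45 at the same library total and −0.17 after quantile normalization. Nqo1 overlapped its untreated values in both genotypes, at 1.38, 0.986 and 1.19 FPKM in WT and at 4.67, 4.80 and 3.26 in Pim1-/- libraries (log2 differences −0.03, adjusted p = 0.79, and 0.09, adjusted p = 0.47, limma). Without the lowest library, LPS-treated Pim1-/- replicate 3, the Pim1-/- difference was 0.23 and passed (adjusted p = 0.029, limma).

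**Figure D2:**
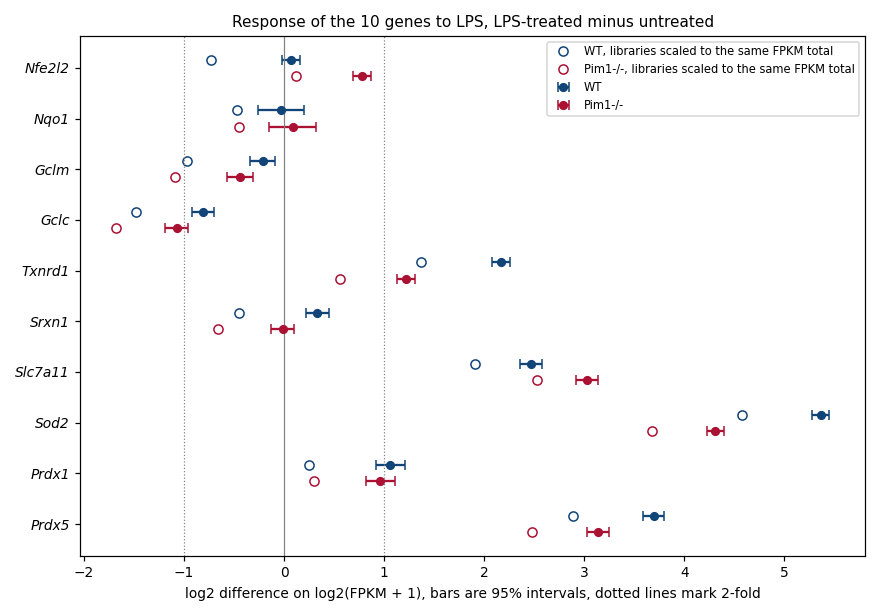
Difference between LPS-treated and untreated cells on the log2(FPKM + 1) scale (x axis) for each gene (y axis), in WT (blue) and Pim1-/- cells (red). Filled points with bars are limma estimates with 95% intervals, open circles are the same estimates with all libraries at the same summed FPKM, and dotted lines mark 2-fold. All open circles lie to the left of their filled points. Sod2, Prdx5, Slc7a11, Txnrd1 and Prdx1 stay above 0 in both scalings.

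The genotypes were then compared after LPS, the state in which the study compared them. Here all 10 genes passed, where 78.6% of all genes tested did (36.4% higher and 42.2% lower). The genes Nqo1, Gclm, Gclc, Slc7a11, Srxn1, Prdx1 and Nfe2l2 were higher in LPS-treated Pim1-/- cells, while Sod2, Prdx5 and Txnrd1, among the genes with the widest LPS responses, were lower. More than 2-fold changes were counted for 3 genes, Nqo1 and Slc7a11 as higher and Sod2 as lower, against 8.66% of all genes tested (3.51% higher and 5.15% lower). For none of the 10 genes did the genotypes' libraries overlap, as for 77.5% of all genes. The macrophage markers and the genes of dividing cells again differed (median log2 differences −0.94 and 2.68), with their part not tested.

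Sod2 had 0.480 of the WT level in LPS-treated Pim1-/- cells (log2 difference −1.05, SE 0.04, adjusted p = 2.7e-12, limma), Prdx5 0.581 (−0.78, adjusted p = 1.3e-09, limma) and Txnrd1 0.783 (−0.35, adjusted p = 1.9e-06, limma). Txnrd1 was thus higher in Pim1-/- cells before LPS and lower after it. Its difference after LPS was −0.15 at the same library total and −0.07 after quantile normalization, where it did not pass (adjusted p = 0.16, limma).

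Slc7a11 was 2.25 times the WT level after LPS (log2 difference 1.09, adjusted p = 4.2e-11, limma) and Nqo1 3.57 times (1.25, adjusted p = 4.4e-08, limma). Gclm was 2.02 times the WT mean, a log2 difference of 0.97 that stayed just under 2-fold on the scale with 1 FPKM added (adjusted p = 6.9e-10, limma). Gclc was 1.71, Prdx1 1.49, Srxn1 1.19 and Nfe2l2 1.13 times the WT mean (log2 differences 0.64, 0.57, 0.25 and 0.18, largest adjusted p = 0.0011, limma). These 7 genes stayed higher under quantile and same-total scaling, and the differences of Nfe2l2 and Srxn1 grew to 0.39 and 0.44 at the same library total. Median-ratio scaling, with library factors of 0.9957 to 1.0164, left the values almost as deposited.

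**Figure D3:**
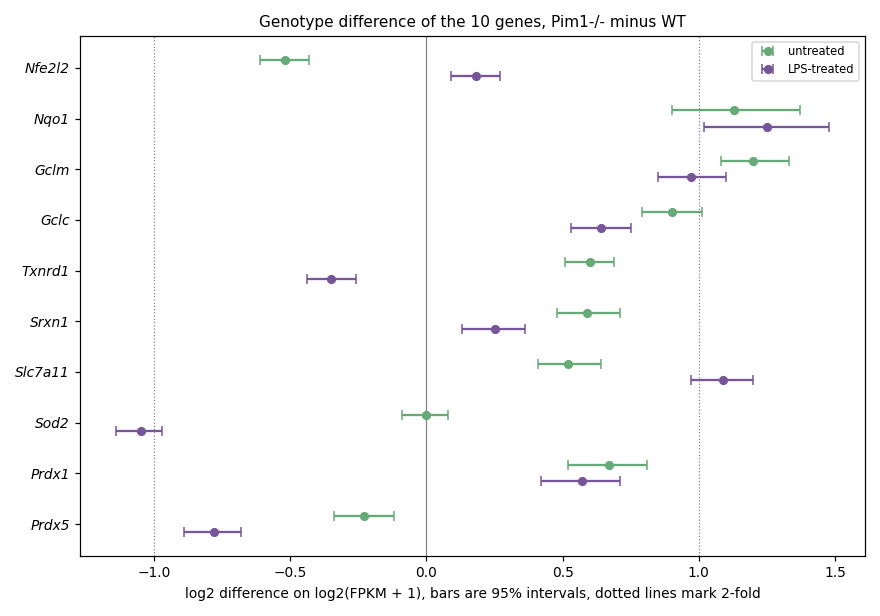
Difference between Pim1-/- and WT cells on the log2(FPKM + 1) scale (x axis) for each gene (y axis), in untreated cells (green) and after LPS (purple). Points are limma estimates with 95% intervals, and dotted lines mark 2-fold. Nqo1, Gclm, Gclc, Srxn1, Slc7a11 and Prdx1 lie above 0 in both states, Prdx5 lies below 0 in both, Txnrd1 and Nfe2l2 lie on opposite sides of 0, and Sod2 moves from about 0 to −1.05.

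Whether the response to LPS itself differed between genotypes was tested as the difference of both responses. It passed for 8 of the 10 genes, all but Nqo1 and Prdx1, against 65.9% of all genes tested (31.3% higher, 34.7% lower), and exceeded 2-fold for Sod2 alone, against 6.67% (2.24% higher, 4.43% lower). The response of Sod2 was smaller in Pim1-/- cells by 1.05 on the log2 scale (SE 0.06, adjusted p = 5.7e-10, limma), a difference of −0.90 at the same library total and −0.74 after quantile normalization. Txnrd1 differed by −0.95 (adjusted p = 3.5e-09, limma) and Prdx5 by −0.56 (adjusted p = 7.2e-06, limma), so the 3 genes lower in Pim1-/- cells after LPS each rose less there. Nfe2l2 differed by 0.70 (SE 0.06, adjusted p = 8.9e-08, limma): its lower start in Pim1-/- cells and its higher level after LPS both entered this value.

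Smaller differences were found for Srxn1 (−0.35, adjusted p = 0.001, limma), Gclc (−0.26, adjusted p = 0.0068, limma) and Gclm (−0.23, adjusted p = 0.027, limma). That of Gclm was −0.14 without LPS-treated WT replicate 1, which held its highest LPS-treated WT value, and −0.11 at the same library total, where it did not pass (adjusted p = 0.25, limma). Slc7a11 differed by 0.56 (adjusted p = 9e-06, limma) with 1 FPKM added but by 0.25 with 0.1 added (adjusted p = 0.037, limma) and the fold changes of its means, 11.2 and 12.6, were close. For Nqo1 the difference was 0.12 with a 95% interval from −0.21 to 0.45, and for Prdx1 −0.10 with an interval from −0.30 to 0.11, so the test did not separate the responses of either gene. The comparisons above share libraries: the untreated WT cells, for example, enter the response of WT cells, the untreated genotype comparison and the difference of responses.

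FPKM is a level per transcript length, so the 10 genes can be ordered within a group. In no group did the libraries of neighbouring genes in this order overlap. In untreated cells of both genotypes the order began with Prdx1, Prdx5, Nfe2l2 and Txnrd1 and ended with Nqo1 and Slc7a11. Sod2 stood seventh of the order in untreated WT cells at 12.4 ± 0.622 FPKM (SD, n = 3) and rose to the third place after LPS in both genotypes, at 549.7 ± 8.57 in WT and 264 ± 3.99 in Pim1-/- cells. Prdx5 held the first place in LPS-treated WT cells, at 2417 ± 91.7 FPKM against 1602 ± 52.3 for Prdx1. In LPS-treated Pim1-/- cells Prdx1 held it, at 2381 ± 160.0 FPKM against 1403 ± 70.7 for Prdx5.

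The set was placed beside other genes of the pathway, on 5 lists. Their counts are read against the shares of all genes tested that passed: 45.0% higher and 44.6% lower with LPS in WT cells, 42.2% and 42.9% with LPS in Pim1-/- cells, 33.4% and 42.8% between untreated genotypes, and 36.4% and 42.2% between LPS-treated genotypes. The list of NRF2 regulators mixes genes that act against NRF2 (Keap1, Cul3, Bach1), small MAF partners (Mafg, Mafk, Maff) and Rbx1, Nfe2l1 and Sqstm1. A count on it therefore gives no direction for NRF2 activity. Among its 9 genes, 7 rose and 1 fell with LPS in WT cells (median log2 difference 0.98, against 0.00 for all genes). In Pim1-/- cells 8 rose (median 1.01). At the same library total these counts were 5 and 3 in each genotype. Maff, a small MAF partner of NRF2, rose from 0.960 ± 0.0652 to 23.7 ± 0.869 FPKM in WT and from 0.836 ± 0.132 to 20.3 ± 0.361 in Pim1-/- cells (SD, n = 3). Mafk, another small MAF, rose 6.49-fold and 7.99-fold, and both rose under every scaling used. Maff did not exceed 1.02 FPKM in any untreated library and met the filter of 1 FPKM through the LPS-treated libraries. It was thus tested only through the treatment under which it is high, and it is among the regulators that rose in both genotypes. Between the genotypes, 1 regulator was higher and 4 were lower without LPS, and 3 were higher and 5 lower after it, counts that became 3 and 3 after LPS at the same library total.

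Sqstm1, which encodes the autophagy receptor p62 that binds KEAP1 and is itself an NRF2 target, was the regulator that differed more than 2-fold between genotypes. It went from 266 ± 3.24 to 761 ± 21.1 FPKM with LPS in WT cells and from 220.8 ± 9.20 to 1589 ± 38.1 in Pim1-/- cells (SD, n = 3). It was 2.09 times the WT level in LPS-treated Pim1-/- cells (log2 difference 1.06, adjusted p = 3.3e-12, limma), and its response differed by 1.33 (adjusted p = 5.4e-11, limma). Keap1 and Bach1, which encode the inhibitor of NRF2 and the repressor that competes for AREs, are named here after their values were seen. Keap1 rose from 17.4 ± 0.321 to 62.4 ± 1.36 FPKM with LPS in WT and from 15.99 ± 0.671 to 46.8 ± 1.57 in Pim1-/- cells, and Bach1 was lower in untreated Pim1-/- cells, at 11.7 ± 0.550 against 21.0 ± 0.350 FPKM (log2 difference −0.79, adjusted p = 1.2e-09, limma).

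Of 26 further NRF2 targets 24 were tested, and they lay on both sides of 0. Between genotypes 9 were higher and 11 lower in untreated Pim1-/- cells (median −0.08), and 9 were higher and 13 lower after LPS (median −0.15), which became 11 and 9 at the same library total. All genes tested divided 33.4% higher and 42.8% lower without LPS and 36.4% and 42.2% after it, so the untreated counts of these targets lay close to the background. Pir, which encodes pirin, was 2.75 and 3.03 times the WT mean without and with LPS (log2 differences 0.98 and 1.09, adjusted p = 4.6e-08 and 1.1e-08, limma). Gsta3, a glutathione transferase, was at 2.42 ± 0.223 and 2.94 ± 0.577 FPKM in Pim1-/- cells without and with LPS and at 0.515 ± 0.0778 and 0.496 ± 0.152 in WT cells. It reached 1 FPKM in Pim1-/- libraries only, so it was tested only through the genotype in which it is high, and it is among the 9 higher targets in both counts. Ephx1, the microsomal epoxide hydrolase, was lower, at 5.92 ± 0.738 against 26.6 ± 0.800 FPKM without LPS (log2 difference −2.0, adjusted p = 1e-12, limma). Esd, an esterase that splits S-formylglutathione, was 2.14 times the WT mean in untreated Pim1-/- cells (log2 difference 1.09, adjusted p = 2.3e-10, limma).

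The same 24 targets moved both ways with LPS. In WT cells 9 rose and 11 fell, and in Pim1-/- cells 8 rose and 12 fell, against 3 and 18, and 3 and 20, at the same library total. Hmox1, heme oxygenase 1, fell from 118 ± 2.01 to 54.2 ± 1.89 FPKM in WT and from 118 ± 4.76 to 50.5 ± 2.36 in Pim1-/- cells (SD, n = 3). Between genotypes it did not pass without LPS (adjusted p = 0.88, limma), and after LPS it passed as lower by a log2 difference of −0.10 (adjusted p = 0.056, limma) with overlapping libraries, a difference that became 0.10 at the same library total and 0.12 after quantile normalization. Osgin1 fell 10.2-fold and 18.1-fold and Cbr3, a carbonyl reductase, 3.97-fold and 2.2-fold. Abcc1, an exporter of glutathione conjugates, rose 2.67-fold and 2.54-fold. Gsr, glutathione reductase, rose from 15.1 ± 0.582 to 83.2 ± 4.39 FPKM in WT but from 20.4 ± 0.394 to 36.4 ± 1.09 in Pim1-/- cells (SD, n = 3). Its response was smaller in Pim1-/- cells by 1.59 on the log2 scale (adjusted p = 3.4e-11, limma), and it was at 0.438 of the WT level after LPS. Like Txnrd1, it was higher in Pim1-/- cells before LPS and lower after it.

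**Figure D4:**
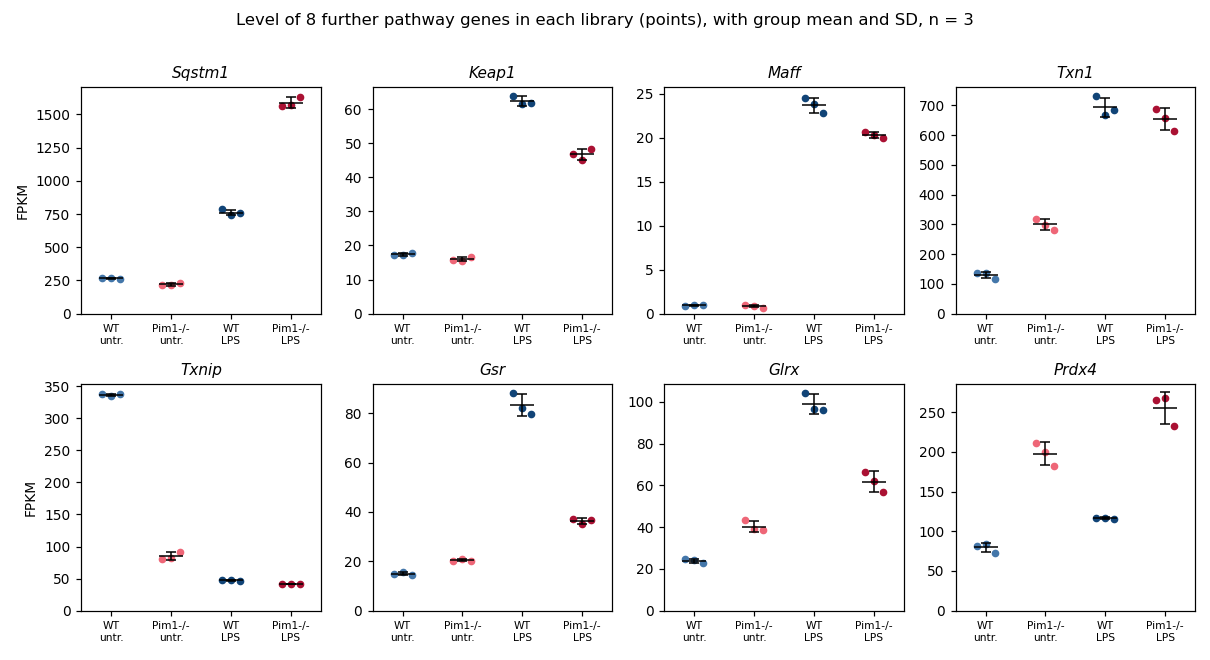
Level in FPKM (y axis, from 0) of 8 further pathway genes, picked for display after their values were seen, in untreated (untr.) and LPS-treated BMDMs of WT and Pim1-/- mice. Points are libraries, and horizontal marks with bars are group means and SD, n = 3. Sqstm1 is highest in LPS-treated Pim1-/- cells, Gsr and Glrx are highest in LPS-treated WT cells, and Txnip is highest in untreated WT cells.

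Of 12 glutathione and cystine enzymes 10 were tested. In Pim1-/- cells 6 were higher and 1 lower without LPS (median 0.23, against −0.05 for all genes), and 6 were higher and 2 lower after it (median 0.15). Gpx3, the secreted glutathione peroxidase, was lower in both states, at 27.7 ± 0.729 against 114 ± 2.39 FPKM without LPS and 23.3 ± 0.691 against 83.4 ± 0.403 after it. Chac1, which degrades glutathione, was at 1.27 ± 0.289 and 3.34 ± 0.400 FPKM in Pim1-/- cells without and with LPS and at 0.151 ± 0.0476 and 0.194 ± 0.0551 in WT cells. It reached 1 FPKM in Pim1-/- libraries only, so it was tested only through the genotype in which it is high, and it is among the 6 higher enzymes in both counts. Glrx, glutaredoxin, rose 4.16-fold with LPS in WT cells and 1.54-fold in Pim1-/- cells, where its log2 difference of 0.60 became −0.05 at the same library total, and its response was smaller in Pim1-/- cells by 1.40 (adjusted p = 2.8e-09, limma). With LPS, 3 enzymes rose and 6 fell in WT cells, and 4 rose and 5 fell in Pim1-/- cells, against 2 and 7 in each genotype at the same library total.

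Of 17 thioredoxin, peroxiredoxin, superoxide dismutase and catalase genes outside the set 16 were tested, and 8 were higher and 7 lower in untreated Pim1-/- cells (median 0.05). After LPS 9 were higher and 1 lower (median 0.11), against 36.4% and 42.2% of all genes, and these counts became 14 and 0 at the same library total and 12 and 0 after quantile normalization. Txn1, thioredoxin, the substrate of Txnrd1, went from 130.3 ± 10.8 to 694 ± 32.2 FPKM with LPS in WT cells and from 300.2 ± 18.8 to 653 ± 37.4 in Pim1-/- cells (SD, n = 3). It was higher without LPS (log2 difference 1.20, adjusted p = 1.7e-10, limma), and after LPS its difference was −0.09 (adjusted p = 0.23, limma), which became 0.12 at the same library total and passed there. Txnip, which binds and inhibits thioredoxin, was at 85.2 ± 5.57 FPKM in untreated Pim1-/- against 337 ± 1.57 in untreated WT cells, and fell to 41.4 ± 0.498 and 47.3 ± 0.959 with LPS. Prdx4, the peroxiredoxin of the endoplasmic reticulum, was higher in Pim1-/- cells in both states, at 197.7 ± 14.3 against 79.7 ± 5.63 FPKM and at 255 ± 19.7 against 116 ± 1.2 (log2 differences 1.30 and 1.13, largest adjusted p = 3.3e-10, limma). Sesn1, a sestrin, fell from 129 ± 1.84 to 2.11 ± 0.151 FPKM with LPS in WT cells and from 48.6 ± 1.35 to 2.27 ± 0.0205 in Pim1-/- cells. With LPS, 5 of the 16 rose and 11 fell in WT cells and 5 rose and 8 fell in Pim1-/- cells, and at the same library total 1 rose and 15 fell in each.

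**Figure D5:**
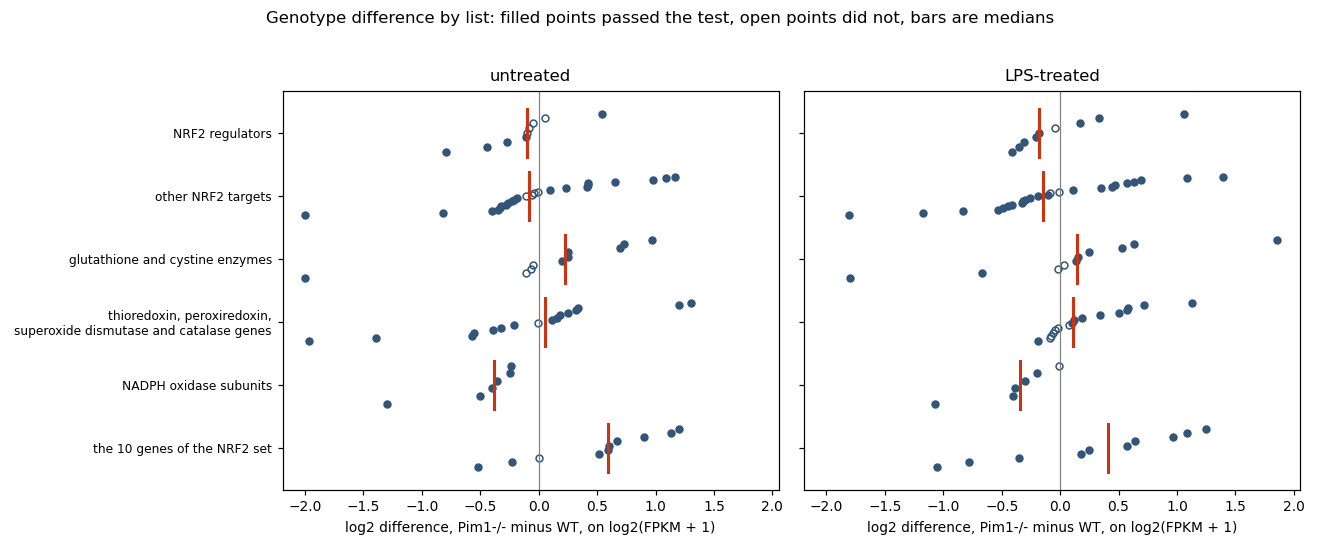
Difference between Pim1-/- and WT cells on the log2(FPKM + 1) scale (x axis) for the genes of each list (y axis), in untreated cells (left) and after LPS (right). Each point is a gene, filled where it passed limma's test and open where it did not, and red bars are list medians. The 10 genes lie mostly above 0 in both states, the further NRF2 targets lie on both sides of 0, and the NADPH oxidase subunits lie at or below 0.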

How the data were processed

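Stranded mRNA libraries of the 12 samples had been sequenced, trimmed and aligned by the authors (cutadapt 1.18, TopHat2 2.0.13, after bcl2fastq 2.20.0.422), who computed expression with Cuffdiff 2.2.1. The deposited values, 1 per gene and library, were read as FPKM, although the unit is not written in the columns; per the labels the build was mm10, while the methods name rat rn5, and 94.6% of gene names matched mouse GENCODE M21 symbols. Fragment counts were not used here, so depth was estimated from the spacing of low values in genes with a single transcript (an assumed fragment length of 200 bases, values up to 0.3 FPKM), of which 61.6% to 72.1% lay within 0.05 of a whole multiple.

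Values were used as deposited. Genes at 1 FPKM or more in at least 3 libraries were fitted as log2(FPKM + 1) with limma 3.58.1 (R 4.3.3), with a mean for each of the 4 groups, a mean-variance trend and 8 residual degrees of freedom, and p-values were adjusted by Benjamini-Hochberg over all 10581 genes. Fold changes on this scale understate those of genes of low level, so ratios of group means are given beside many of them. The responses of Gclc, Gclm, Srxn1 and Nqo1 to LPS are given on the log2(FPKM + 1) scale only. Thresholds were p under 0.05, FDR under 0.1 and, for larger changes, more than 2-fold. The 10 genes, the pathway lists and the marker lists were chosen with earlier results of these data known. Named pathway genes were, per list and comparison, up to 2 with the largest increase and 2 with the largest decrease among those past all thresholds. Some of the genes so named are described under only some comparisons.

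Gene positions are those of GENCODE M21. Near-identical copies were searched with blastn 2.17.0. The rule of more than 2-fold was checked on simulated data with independent noise, and the thresholds without a fold requirement were not. Other steps used Python 3.11.15, matplotlib 3.10.9, numpy 2.4.6 and pandas 2.3.3. The labels number replicates alike in all groups. Libraries with the same number were compared by how their values deviated from their group mean, over 3646 genes at 10 FPKM or more in every library. The correlation was 0.33, 0.37 and 0.46 between untreated genotypes and 0.43, 0.54 and 0.68 between treatments in Pim1-/- cells. It was −0.10, 0.14 and 0.19 between treatments in WT cells and 0.02, 0.37 and 0.19 between LPS-treated genotypes. Libraries with different numbers were not compared, so these correlations do not establish that the numbers pair libraries. Alternatives covered the pseudocount, filters, scaling, the groups fitted, the replicate block, the trend, the FDR and leaving out each library, and scaling to the same summed FPKM was added after the data were seen.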

Additional observations from a re-analysis of the deposited data

Results flagged for a closer look

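For 8 of the 10 genes the response to LPS differed between the genotypes by limma's test of that difference, given as the response in Pim1-/- cells minus that in WT cells on the log2(FPKM + 1) scale. The same test passed for 65.9% of all genes. As deposited, the response was smaller in Pim1-/- cells for Sod2 (−1.05), Txnrd1 (−0.95), Prdx5 (−0.56) and Srxn1 (−0.35). It was larger for Nfe2l2 (0.70) and Slc7a11 (0.56). At the same library total Nfe2l2 instead fell in WT cells (−0.73), against 0.12 in Pim1-/- cells. Srxn1 fell there in both genotypes, by −0.45 in WT and −0.66 in Pim1-/- cells. With 0.1 FPKM added instead of 1, the difference for Slc7a11 was smaller. For Gclc (−0.26) and Gclm (−0.23), which fell with LPS in both genotypes, the decrease was larger in Pim1-/- cells. The difference for Gclm did not pass at the same library total. Groups of 3 libraries were not tested for single libraries far from the others.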

How the results depend on the processing

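Of 436 counts under alternatives, 431 stayed within 1.5 times the main value. With a filter of 5 FPKM, 1 gene of the set exceeded 2-fold between untreated genotypes, since Nqo1 was then not tested. With a pseudocount of 0.1, 1442 genes (717 higher, 725 lower, against 371 and 545) exceeded 2-fold between LPS-treated genotypes and 1075 (510 and 565, against 237 and 469) in the difference of responses. In the latter, 0 of the 10 genes exceeded 2-fold after quantile normalization or at the same library total. At the same library total, genes changed more than 2-fold by LPS in WT cells were 1192 higher and 3723 lower, against 2130 and 1556 as deposited, and between LPS-treated genotypes 504 and 335, against 371 and 545.

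The 1085 values of single genes include fits without a library outside the groups compared, where the log2 difference could not change. Of all 1085 values, 1059 kept direction and side of the threshold, and 17 turned direction. With LPS in WT cells these were Nfe2l2 (−1.03 after quantile normalization, −0.73 at the same total), Srxn1 (−0.17 and −0.45) and Nqo1 (0.31 after quantile normalization, 0.040 without untreated and 0.036 without LPS-treated WT replicate 2). In Pim1-/- cells they were Nfe2l2 (−0.083, quantile), Nqo1 (−0.45, same total) and Srxn1, which ran from −0.035 to 0.014 when single untreated Pim1-/- libraries were left out. Between untreated genotypes Sod2 was 0.0073 with median-ratio scaling, 0.026 with quantile normalization and 0.051 at the same total, and ran from −0.041 to 0.024 when single libraries were left out. In the difference of responses Nqo1 was −0.11 (quantile) and Prdx1 0.050 (same total). Apart from the scaling itself, the cause was not tested. Nfe2l2 passed with LPS in WT cells with median-ratio scaling (0.10, adjusted p = 0.04) and without LPS-treated WT replicate 3 (0.11, adjusted p = 0.024, limma), and the response of Nqo1 differed without LPS-treated Pim1-/- replicate 3 (0.26, adjusted p = 0.075, limma). Leaving out single libraries otherwise left 8 to 9 genes past the thresholds with LPS in each genotype, 9 and 10 between genotypes and 8 to 9 in the difference. With the replicate block the genes past the thresholds were 8, 8, 9, 10 and 8, and no call changed.

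Depth limits values near or below 1 FPKM, those of Nqo1 in WT cells and of Slc7a11 in untreated WT cells. There 1 FPKM stood for an estimated 38 to 46 fragments per kilobase in untreated and 21.0 to 32.2 in LPS-treated libraries.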

Other observations

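The subunits of the phagocyte NADPH oxidase, which makes superoxide, were examined as well. Only their RNA was measured, and no oxidant was. Of 6 subunits, 6 were lower in untreated Pim1-/- than in WT cells (median log2 difference −0.38) and 5 after LPS (median −0.34), while 0 were higher. Of all genes tested 42.8% were lower without LPS (median −0.05) and 42.2% after it (median −0.03). At the same library total 3 were lower and 1 higher after LPS. Cybb, the catalytic subunit gp91phox, was at 61.5 ± 3.25 against 153 ± 3.03 FPKM without LPS (SD, n = 3, log2 difference −1.30, adjusted p = 9e-13, limma) and at 642 ± 19.4 against 842 ± 32.4 after it. It rose 10.4-fold with LPS in Pim1-/- and 5.51-fold in WT cells, a difference of 0.91 (adjusted p = 1.1e-08, limma). Rac2, the GTPase of the complex, was at 107 ± 6.45 against 224 ± 4.60 FPKM after LPS (log2 difference −1.07, adjusted p = 3.3e-11, limma). Ncf4, the p40phox subunit, rose 2.33-fold in WT and 2.34-fold in Pim1-/- cells. With LPS, 5 subunits rose and 1 fell in each genotype as deposited, where 45.0% of all genes rose in WT and 42.2% in Pim1-/- cells. At the same library total 4 rose and 2 fell in WT cells, and 3 rose and 2 fell in Pim1-/- cells. Macrophage markers were lower in the same libraries, and their part in these differences was not tested.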
